A study of Homo sapiens with 26 samples.

Results

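The CDKN1A locus was taken as all H3K27ac and H3K4me1 peaks that overlapped CDKN1A or the 100 kb to each side of it. On GRCh37, CDKN1A runs from 36644237 to 36655114 on the plus strand of chromosome 6, and the window runs from 36544237 to 36755114. The window held 258 of the 929607 peaks in the 16 lists, 109 of 398254 for H3K27ac and 149 of 531353 for H3K4me1. Merged across the lists of a mark wherever they overlapped, these peaks formed 20 of 87608 H3K27ac regions and 27 of 110276 H3K4me1 regions.

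The peaks came from ChIP-seq in HCT116, a colorectal cancer line with wild-type p53, here called WT, and in a derivative named for the cohesin subunit RAD21. Cells had been given DMSO, the vehicle (0 h), or Nutlin-3a, a small molecule that blocks the binding of p53 to HDM2, for 1 h or 10 h. H3K27ac was profiled in WT at the 3 times and in the RAD21 line at 0 h and 1 h, and H3K4me1 in WT alone at the same 3 times, with 2 libraries in each of the 8 groups. In the study the RAD21 line carried a degron tag and lost RAD21 to an auxin analogue given before the other treatments, but the sample labels name no such step, RAD21 protein was not measured here, and the letters KD stand in the peak names of this line only. The sample titles number the replicates as BR and the study calls its replicates biological, but no label says whether they were separate cultures. The p-values then measure only the spread between these libraries, which may be technical.

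CDKN1A encodes p21, an inhibitor of cyclin-dependent kinases that halts the cell cycle, and it is among the most studied targets of p53. A p53 response element is made of 2 copies of a decamer, and p53 binds such an element upstream of the main CDKN1A start site. Acetylation of histone H3 at lysine 27 marks active promoters and enhancers, and monomethylation at lysine 4 marks enhancers, active or primed, and the flanks of promoters. Beside CDKN1A lie the long noncoding RNA genes PANDAR and DINOL, both transcribed from the opposite strand. Farther out lie SRSF3, which encodes a splicing factor, and RAB44 and CPNE5, which encode a small GTPase and a copine.

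CDKN1A has 5 start sites of protein-coding transcripts, at 36644237, 36644267, 36646487, 36646491 and 36646498. Distances below are from 36646491, the start of the main transcript, whose start codon lies in exon 2 and whose stop codon lies in exon 3. The sequences of 4 stretches are shown. The promoter p53 element and the core promoter lay under H3K27ac in some lists only, and the upstream p53 element and the summit stretch lie in the region whose H3K27ac rank changed most clearly. They are plus strand, 5′ to 3′, GRCh37. Capitals mark p53 element matches in the first pair of stretches and GGGCGG in the core promoter, where the last pair of sites shares 1 base. The summit stretch has none.
Promoter p53 element with the bases before it, chr6:36644126-36644245: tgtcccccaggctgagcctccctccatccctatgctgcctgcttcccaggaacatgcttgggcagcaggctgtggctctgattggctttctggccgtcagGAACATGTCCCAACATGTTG
Upstream p53 element with its flanks, chr6:36634985-36635104: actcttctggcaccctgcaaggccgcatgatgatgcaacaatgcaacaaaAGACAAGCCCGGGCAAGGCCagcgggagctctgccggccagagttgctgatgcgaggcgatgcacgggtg
Core promoter before the start site cluster, chr6:36646337-36646486: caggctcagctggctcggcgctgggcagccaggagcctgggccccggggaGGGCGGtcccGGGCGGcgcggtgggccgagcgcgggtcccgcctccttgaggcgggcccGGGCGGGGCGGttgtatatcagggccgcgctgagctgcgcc
Upstream region around its summits, chr6:36635168-36635318: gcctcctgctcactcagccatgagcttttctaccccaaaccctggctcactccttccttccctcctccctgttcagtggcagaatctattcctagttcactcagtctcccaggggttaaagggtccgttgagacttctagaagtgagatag

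The promoter element lies at 36644226 to 36644245, −2.27 kb from the main start site, and overlaps the most upstream start site. It has no spacer and departs from the p53 decamer consensus at 2 positions outside the C and G of the cores. It was the only match in the promoter zone and the 2000 bp before it, a scan of 5462 bp from 3 kb before the gene start. Windows of that length and placement at protein-coding genes held at least 1 match in 8.19% of 20136 cases. The upstream element lies at 36635035 to 36635054, −11.5 kb from the main start site, with no spacer and 1 departure. Windows of its region's length (2214 bp) centred on H3K27ac regions held a match in 5.62% of 87603 cases. GGGCGG occurred 4 times, counting either strand, in the 250 bp before the start site cluster, and 48.8% of 20136 protein-coding genes had it at least once in the 250 bp before their start. These matches are letters in a window, and no p53 binding was measured here.

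The lists held 31640 to 49127 peaks for H3K27ac and 84492 to 92943 for H3K4me1, and they give no read counts, so depth is unknown. A peak is therefore described by its percentile, the percentage of peaks in its own list with a lower −log10 p-value. For tests, the regions called in all lists of a mark were ranked against each other within each list, and the ranks were turned into normal scores. A score of 0 is the middle of these regions, not of the whole list, and 1 is 1 SD above it. A peak above the middle of its list can thus score below 0. Percentiles also depend on how many weak peaks a list holds, so they can differ between lists where scores do not. Changes are differences between group means of these scores. A change was called at an adjusted p under 0.05 over all of these regions. In 3 H3K27ac lists, WT 0 h replicates 1 and 2 and WT 1 h replicate 1, the peak names lack the word input, which the other 7 carry. Over all 13214 protein-coding genes with H3K27ac in every list, 68.7% had a shorter H3K27ac stretch in each of these 3 lists than in each of the other 7. The form of the peak name cannot be told apart from time in the WT comparison of 10 h with 0 h, nor from the line at 0 h. The group with both forms is WT 1 h, so wherever the form is a term below, its effect is estimated from 1 list of each form (WT 1 h replicate 2 against replicate 1), and a value that compares WT with time or line then rests on a lone list. Such values are given as a description and support no call. The study's methods state an input control for peak calling. Whether the 3 lists were called with one was not tested, and fold enrichments called without one would be relative to another background. All 6 H3K4me1 lists have the same form.

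**Figure D1:**
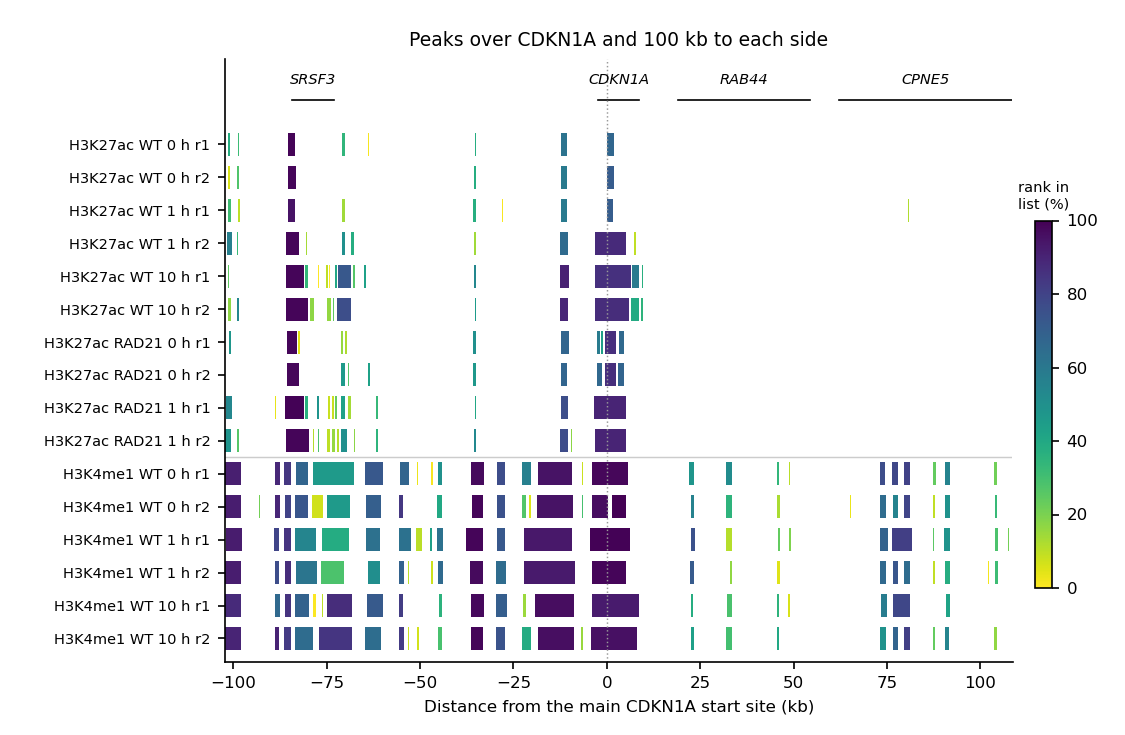
Peaks of all 16 lists over CDKN1A and 100 kb to each side, by distance from the main start site (kb). Each bar is a peak, coloured by its percentile in its own list, r1 and r2 are replicates, and the gene spans are drawn on top. H3K27ac had no peak downstream of CDKN1A in 7 of 10 lists, while H3K4me1 had peaks on both sides.

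H3K27ac lay almost wholly upstream of CDKN1A and over the gene itself. Of the 20 merged H3K27ac regions, 4 were called in all 10 lists: the SRSF3 promoter (36560430 to 36566682), a region −35.4 kb from the main start site (36610542 to 36611576), a region at −11.4 kb (36634030 to 36636243), and the region over CDKN1A (36643167 to 36655088). Of the rest, 2 were called in 9 lists, 1 in 6 lists and 13 in 1 to 4 lists. Downstream of the gene, 2 regions were called, one of them in both WT 10 h lists and the other in the WT 1 h replicate 1 list alone. Neither the RAB44 start nor any other place in the downstream zone had H3K27ac in WT at 0 h or in the RAD21 line. H3K4me1 had 27 regions on both sides of the gene, 17 of them called in all 6 lists, 2 in 5 lists, 4 in 3 lists and 4 in 1 list. It lay over the PANDAR start in all 6 lists, where no H3K27ac list had a peak.

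The total length under H3K27ac peaks in the window was 7622 and 7254 bp in the WT 0 h lists, 8375 and 18359 bp at 1 h, and 26155 and 27597 bp at 10 h. In the RAD21 line it was 13179 and 13786 bp at 0 h and 23146 and 24849 bp at 1 h. The SD between replicates was 260 to 1204 bp in 4 of these 5 groups and 7060 bp at WT 1 h, where the replicate 1 list lay near the 0 h lists. The 3 shortest lengths were those of the lists whose peak names lack the word input. Those lists also held fewer peaks over the genome, 31640 to 33976 against 39092 to 49127 in the others. For WT at 10 h against 0 h, and between the lines at 0 h, the form could thus not be told apart from time or line. For H3K4me1 the window length was 69144 and 61123 bp at 0 h, 76052 and 63443 bp at 1 h, and 65419 and 68656 bp at 10 h, so that the time points overlapped. With 2 lists against 2, the smallest two-sided p of an exact permutation test is 0.333, so lengths were not tested one by one.

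The region at −11.4 kb, which lies in no annotated gene, between SRSF3 and PANDAR, and is here called the upstream enhancer region since it also carried H3K4me1 in all 6 lists, ranked far higher after 10 h of Nutlin-3a. Its H3K27ac peak stood at percentiles 61.9 and 59.3 in WT at 0 h, 59.3 and 65.3 at 1 h, and 91.0 and 89.4 at 10 h. The RAD21 line had it at percentiles 67.9 and 67.6 before Nutlin-3a and at 76.2 and 77.3 after 1 h of it. The 10 h lists were thus above all others, and the RAD21 1 h lists were above all remaining ones, while WT at 0 h and 1 h overlapped. The authors' fold enrichment of this peak, a ratio, ran from 6.37 to 10.4 in the 4 WT lists at 0 h and 1 h, was 34.5 and 38.3 at WT 10 h, was 12.1 and 9.45 at RAD21 0 h, and was 30.7 and 42.4 at RAD21 1 h. The lists without the word input had 6.37 to 6.75.

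By limma, the normal score of the upstream enhancer region rose by 1.08 ± 0.126 (SE) from 0 h to 10 h in WT (adjusted p = 3.06e-04), where 18.3% of 18757 regions were called in either direction. From 1 h to 10 h it rose by 1.18 ± 0.126 (adjusted p = 4.05e-05, 32.4% called). From 0 h to 1 h in WT it did not pass the test (−0.09 ± 0.126, adjusted p = 0.604, 29.1% called). In the RAD21 line it rose by 0.51 ± 0.126 within 1 h (adjusted p = 0.00902, 27.7% called), and at 1 h it was higher in the RAD21 line than in WT by 0.54 ± 0.126 (adjusted p = 0.0172, 11.8% called). At 0 h the difference between the lines did not pass (−0.07 ± 0.126, adjusted p = 0.690, 37.5% called). The 1 h change was larger in the RAD21 line than in WT by 0.61 ± 0.178 (interaction, adjusted p = 0.0268), a call that 22.7% of all regions also had.

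With the form of the peak name as a term, the WT change from 0 h to 10 h was 1.30 ± 0.199 (adjusted p = 4.94e-04) and the interaction 0.50 ± 0.181 (adjusted p = 0.0389). Both rest on the gap between the lone WT 1 h lists, whose scores were −0.38 without and −0.60 with the word input. Within lists that carry the word input, the mean score was 0.69 in the 2 WT 10 h lists and −0.60 in the WT 1 h list, a difference of 1.29. Within the same lists, the RAD21 line had a mean score of 0.05 at 1 h and −0.47 at 0 h. When peaks were ranked by their fold enrichment, limma no longer called the changes for the RAD21 line at 1 h (0.52 ± 0.194 against its 0 h, adjusted p = 0.271), for the RAD21 line against WT at 1 h (0.52, adjusted p = 0.233) and for the interaction (0.80 ± 0.275, adjusted p = 0.255), and it still called those for WT at 10 h. The call within the RAD21 line was lost without RAD21 0 h replicate 2 (0.44) or RAD21 1 h replicate 2 (0.47), and that between lines at 1 h without RAD21 1 h replicate 1 (0.58) or replicate 2 (0.49). The interaction call was also lost when any 1 of 5 lists was left out, namely either WT 0 h list, RAD21 0 h replicate 2 or either RAD21 1 h list, with values of 0.53 to 0.64.

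The peak of the upstream enhancer region kept its place. Its width was 1464 to 2214 bp over the 10 lists, and its summit lay between −11.5 and −11.2 kb in each. Over the 6 lists with Nutlin-3a, the summits ran from 36635188 to 36635290, all inside the summit stretch printed above, and the median was 36635243. The upstream p53 element match lay under the peak in all 10 lists.

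**Figure D2:**
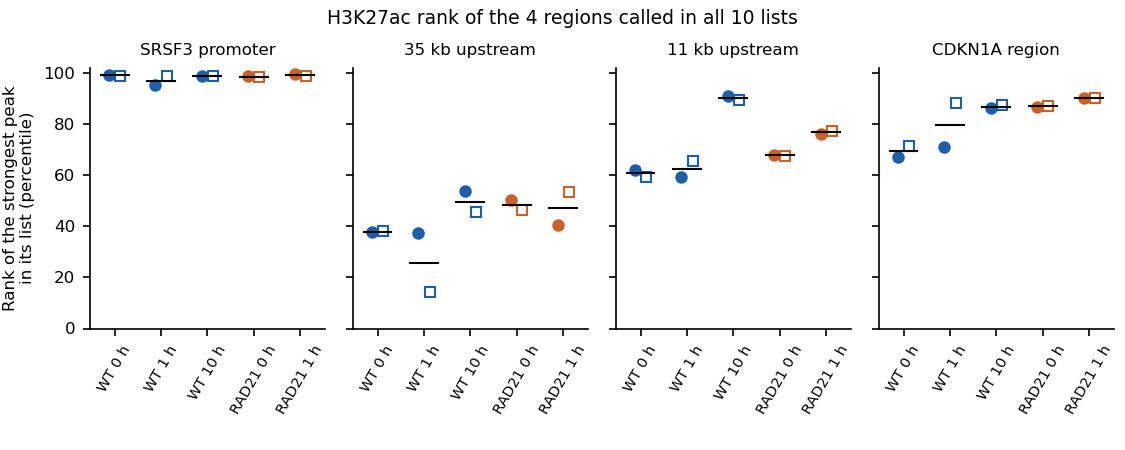
Percentile, within its own list, of the strongest H3K27ac peak in each of the 4 regions called in all 10 lists (y axis), by group (x axis). Filled circles are replicate 1, open squares replicate 2 and lines group means. The region 11 kb upstream stood near 90 in both WT 10 h lists, the SRSF3 promoter stayed above 95 in all lists, and the WT 1 h replicates were apart at the CDKN1A region.

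Neither of the other regions called in all H3K27ac lists outside CDKN1A passed the test in any of the 7 comparisons. The SRSF3 promoter, the strongest in the window, stood at percentiles 95.2 to 99.5 in the 10 lists, with a change in WT of −0.22 ± 0.178 from 0 h to 10 h. Its score was 1.40 in WT 1 h replicate 1 and 1.87 in replicate 2. With the name form as a term, which rests on that pair, the value was −0.70 for WT at 1 h against 0 h (adjusted p = 9.57e-04), −0.76 between the lines at 0 h (adjusted p = 0.00958) and 0.96 for the interaction (adjusted p = 4.58e-04). The region at −35.4 kb, a weak H3K27ac peak 301 to 862 bp wide, stood at percentiles 14.2 to 53.7. Without WT 1 h replicate 1, its value for WT at 1 h against 0 h was −1.26. The 1 h list then left carries the word input and the 0 h lists do not. H3K4me1 over the same place was among the strongest of its lists, at percentiles 97.5 to 98.8. The region −69.9 kb from the start site was called in 9 lists and could not enter the test, since it had no peak in WT 0 h replicate 2. Its percentiles were 72.7 and 76.3 in the WT 10 h lists and 14.3 to 50.1 in the other 7.

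Over CDKN1A itself, H3K27ac formed a short peak in 3 lists, several separate peaks in the RAD21 0 h lists and a broad peak in the rest. In WT at 0 h (both replicates) and WT 1 h replicate 1 the gene had a lone peak of 1808, 1888 and 1653 bp that began 0.0450 to 0.0490 kb after the main start site and ended 1.70 to 1.94 kb after it. These are the 3 lists whose peak names lack the word input. In WT 1 h replicate 2 the main peak was 8208 bp wide, and at WT 10 h it was 9627 and 9209 bp wide, each beginning −3.17 to −3.13 kb from the main start site, with a smaller peak beyond it. The RAD21 line had 4 and 3 separate peaks at 0 h, the widest 3021 and 3077 bp, and a lone peak of 8536 and 8428 bp at 1 h. The authors' fold enrichment of the strongest peak was 4.12 to 4.73 in the 3 lists with the short peak and 19.6 to 85.4 in the 7 others, a split that is also that of the name form. With the same name form in all lists of the RAD21 line, the gaps between the peaks at 0 h were thus bridged in both 1 h lists. Peaks were also wider over these whole lists, with medians of 788 and 785 bp at RAD21 0 h and 1110 and 1169 bp at RAD21 1 h. Ranked against all genes, the length of CDKN1A under peaks did not pass in this comparison (0.19, limma, adjusted p = 0.835).

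**Figure D3:**
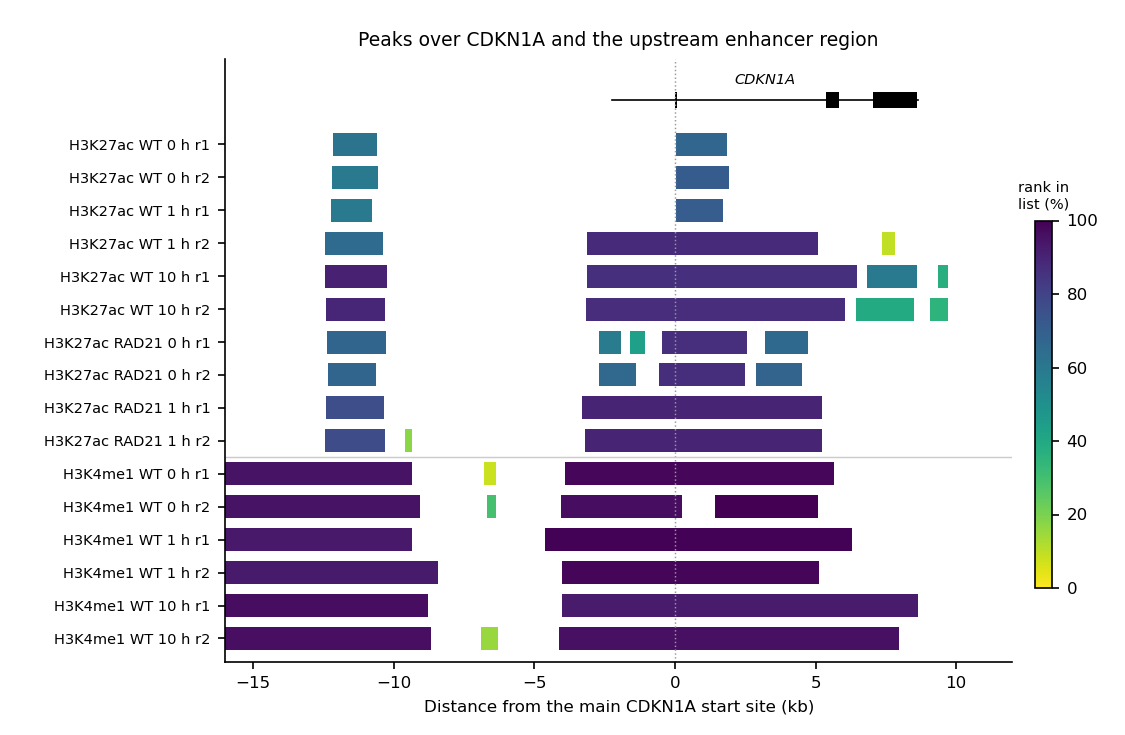
Peaks from 16 kb before to 12 kb after the main CDKN1A start site, by distance (kb), with the exons of the main transcript drawn as boxes. Each bar is a peak, coloured by its percentile in its own list. H3K27ac peaks crossed the start site (dotted line) in 7 of 10 lists, and both marks reached the last exon in the WT 10 h lists.

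The features of the gene were covered accordingly. The promoter p53 element, the most upstream start site, the DINOL start at −0.155 kb and the main start site lay under H3K27ac in the same 7 of 10 lists, and in none of the 3 lists with the short peak. The start codon (5.39 kb) and the stop codon (7.08 kb) lay under H3K27ac in both WT 10 h lists and in none of the 8 others. The WT 10 h lists also had a peak just past the gene end, at 36655543 to 36656214, which no other H3K27ac list had. By zone, the promoter was covered to 6.59% ± 0.116 (SD, n = 2) in WT at 0 h, 50.7% ± 62.3 at 1 h and 95.9% ± 0.984 at 10 h, and to 58.3% ± 2.87 and 98.8% ± 1.65 in the RAD21 line at 0 h and 1 h. The rest of the gene body was covered to 17.9% ± 0.630, 41.7% ± 36.6 and 95.2% ± 1.36 in WT, and to 48.1% ± 0.480 and 63.9% ± 0.142 in the RAD21 line. The SD at WT 1 h was as large as the mean or nearly so, since its replicates fell on either side.

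The rank of the CDKN1A region changed less clearly than that of the upstream enhancer region. Its strongest peak stood at percentiles 67.2 and 71.2 in WT at 0 h, 70.9 and 88.1 at 1 h, 86.0 and 87.4 at 10 h, 86.7 and 87.1 at RAD21 0 h, and 90.2 and 90.1 at RAD21 1 h. The 3 lists with the short peak were below the 7 others, whatever the time. Of the 7 comparisons, the one between lines at 0 h passed the test, where 37.5% of 18757 regions were called. The score was 0.62 ± 0.162 higher in the RAD21 line (adjusted p = 0.00952). That call was lost with the name form as a term, estimated from the scores of the lone WT 1 h lists, 0.06 and 0.66 (0.02 ± 0.175, adjusted p = 0.942). It was also lost without WT 0 h replicate 1 or either RAD21 0 h list (0.52 to 0.63).

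In WT the CDKN1A region differed from 0 h by 0.41 ± 0.162 at 1 h (adjusted p = 0.0722) and by 0.49 ± 0.162 at 10 h (adjusted p = 0.0540), neither past the threshold. The WT 1 h replicates lay apart, and leaving out either lowered the SE. Without the replicate 1 list, the 1 h difference was 0.70 ± 0.122, and with either one of the pair left out the 10 h difference was 0.48. In these, the later lists carry the word input and the 0 h lists do not, so form and time cannot be told apart. Without the replicate 2 list, 10 h against 1 h was 0.37 and the RAD21 line against WT at 1 h was 0.76. There the WT 1 h list left lacks the word input, which the lists set against it carry. All lists gave 0.07 (adjusted p = 0.762) and 0.46 (adjusted p = 0.0797). The interaction was −0.16 (adjusted p = 0.664) over all lists and −0.45 without the replicate 1 list, where WT form and time again went together. With the name form as a term, the 10 h difference was −0.11 ± 0.175 (adjusted p = 0.787). In the RAD21 line the 1 h difference was 0.26 ± 0.162 (adjusted p = 0.258). With the name form as a term the value was the same, and it passed through a smaller SE alone (0.26 ± 0.101, adjusted p = 0.0437). That term takes the gap between the WT 1 h lists out of the spread that all groups share, as leaving out either of them does. The pass therefore supports no call in the RAD21 line.

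Set against the promoter and gene body, the upstream enhancer region was the weaker of the pair in 8 of 10 lists and the stronger in the 2 WT 10 h lists. The score of the upstream enhancer region minus that of the CDKN1A region was −0.22 and −0.47 in WT at 0 h, −0.44 and −1.26 at 1 h, and 0.37 and 0.14 at 10 h. For the RAD21 line it was −0.98 and −1.08 at 0 h and −0.82 and −0.74 at 1 h. This difference was read for each list and was not tested.

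**Figure D4:**
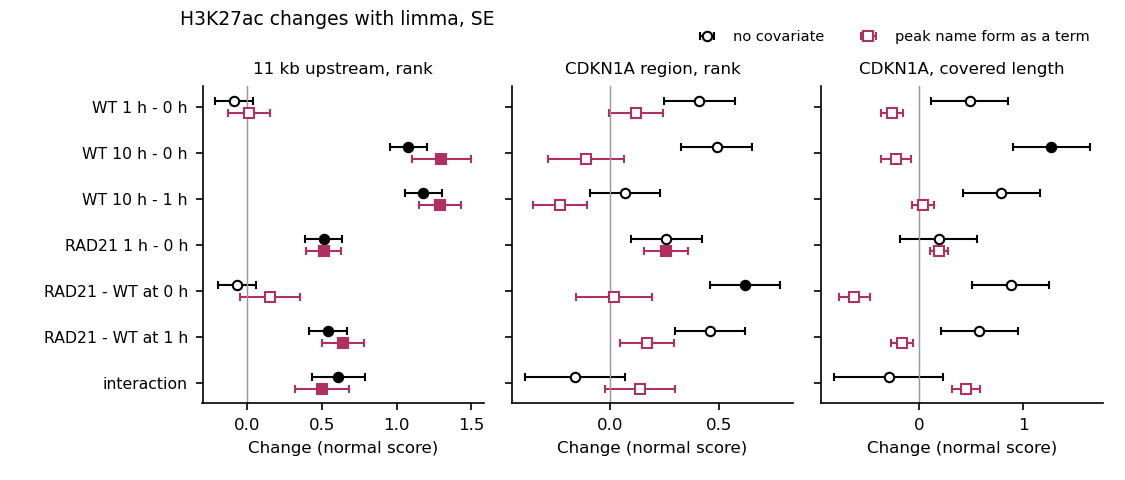
H3K27ac changes in normal score (x axis) with their SE for the upstream enhancer region, the CDKN1A region and the covered length of CDKN1A, in the 7 comparisons (y axis). Filled symbols had an adjusted p under 0.05. Black circles are without a covariate, and red squares have the form of the peak name as a term, an effect estimated from 1 WT 1 h list of each form, with which the covered length at 10 h against 0 h went from 1.27 to −0.22.

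How far H3K27ac reached over CDKN1A was also measured against all genes, as the length under peaks between 5 kb before the gene and its end. This length was 1808 and 1888 bp in WT at 0 h, 1653 and 8691 bp at 1 h, 11399 and 11251 bp at 10 h, 5881 and 6044 bp at RAD21 0 h, and 8536 and 8428 bp at RAD21 1 h. CDKN1A lay above 49.5% to 61.2% of the genes with any H3K27ac in the 3 lists with the short peak, and above 84.9% to 93.0% in the 7 others. The median over those genes was 1651 to 1671 bp in the former lists and 2525 to 3159 bp in the latter.

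By limma on normal scores of this length over 13214 genes, CDKN1A gained 1.27 ± 0.370 from 0 h to 10 h in WT (adjusted p = 0.0282), a comparison in which 35.4% of genes were called. With the name form as a term, the value was −0.22 ± 0.148 (adjusted p = 0.459). That value takes off the gap between the scores of WT 1 h replicate 2 (1.38) and replicate 1 (−0.11), 1 list of each form, so it shows that form and time could not be separated and not a change in the other direction. The call was also lost when any 1 of the 4 lists it compares was left out (1.21 to 1.33). In the other comparisons CDKN1A was not called. The values were 0.49 ± 0.370 for WT at 1 h against 0 h (adjusted p = 0.486, 1.87% of genes called), 0.79 for WT at 10 h against 1 h (adjusted p = 0.176, 14.3%), 0.19 for the RAD21 line at 1 h against 0 h (adjusted p = 0.835, 3.25%), 0.88 between lines at 0 h (adjusted p = 0.105, 27.5%), 0.58 between lines at 1 h (adjusted p = 0.401, 0.923%) and −0.29 for the interaction (adjusted p = 0.813, 1.29%). Without WT 1 h replicate 1, WT at 1 h against 0 h was 1.23 and the interaction −1.04. Without WT 1 h replicate 2, WT at 10 h against 1 h was 1.53 and the lines at 1 h differed by 1.33. With 1 or the other left out, the lines at 0 h differed by 0.87 and 0.88. Each of these values sets lists with the word input against lists without it, so form could not be told apart from time or line. Within the lists that carry the word input, the mean score was 1.42 at WT 10 h and 1.38 in the WT 1 h list.

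**Figure D5:**
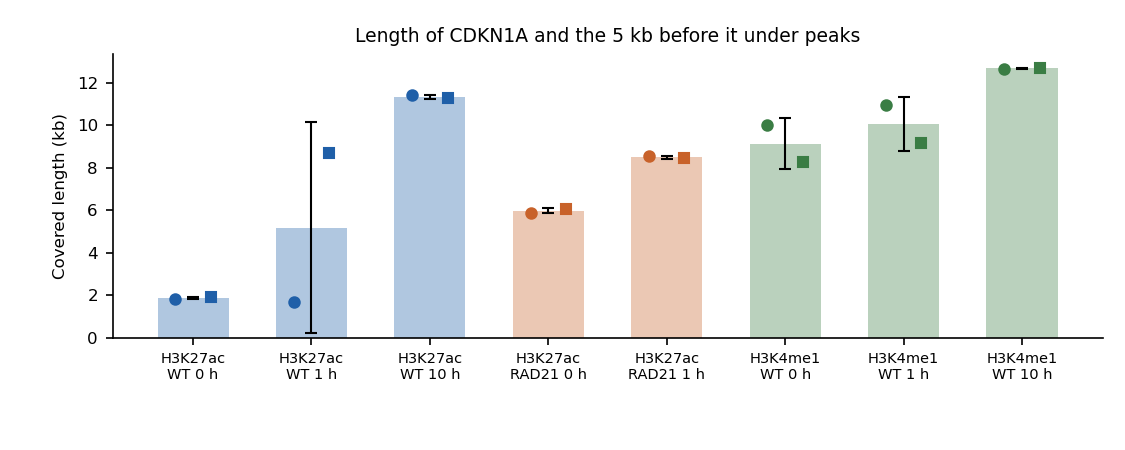
Length of CDKN1A and the 5 kb before it under peaks (y axis, kb) by mark and group. Bars are means of 2 lists, error bars SD, circles replicate 1 and squares replicate 2. H3K27ac covered under 2 kb in both WT 0 h lists and over 11 kb in both WT 10 h lists, and H3K4me1 covered between 8 and 13 kb throughout.

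H3K4me1 covered the promoter zone of CDKN1A in full in all 6 lists, and with it the promoter p53 element match and the CDKN1A start sites. In WT 0 h replicate 2 it had a gap from 0.239 to 1.44 kb after the main start site. Its region over the gene (36641856 to 36655143) reached 5.67 and 5.08 kb past the main start site at 0 h, 6.30 and 5.12 kb at 1 h, and 8.65 and 7.97 kb at 10 h. The stop codon lay under H3K4me1 in the 2 lists of 10 h and in none of the 4 others, as was the case for H3K27ac. The covered length of the gene and 5 kb before it was 9986 and 8268 bp at 0 h, 10934 and 9141 bp at 1 h, and 12656 and 12701 bp at 10 h. The 10 h lists were above all others, but by limma over 16337 genes the differences did not pass, with 0.39 ± 0.0835 from 0 h to 10 h (adjusted p = 0.163, 0.0306% of genes called), 0.38 ± 0.0835 from 1 h to 10 h (adjusted p = 0.0588, 1.38% called) and 0.00 ± 0.0835 from 0 h to 1 h (adjusted p = 0.998, 0.171% called).

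In rank, H3K4me1 over CDKN1A was not higher at 10 h. Its strongest peak stood at percentiles 98.3 and 99.8 at 0 h, 99.5 and 98.7 at 1 h, and 92.9 and 96.0 at 10 h, so that the 10 h lists were the lowest. The score at 10 h differed by −0.89 ± 0.214 from 0 h (adjusted p = 0.0920, 0.638% of 60476 regions called) and by −0.80 ± 0.214 from 1 h (adjusted p = 0.0566, 3.05% called), and the 1 h score by −0.10 ± 0.214 from 0 h (adjusted p = 0.873, 0.595% called). None of these passed. Without WT 0 h replicate 1 the 10 h against 0 h difference did (−1.28, adjusted p = 0.0258), and with either one of the WT 0 h lists left out the 10 h against 1 h difference did (−0.80, adjusted p = 0.0270 and 0.0265).

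At the upstream enhancer region H3K4me1 was already high at 0 h. It lay in a broad region from −22.8 to −8.44 kb, whose strongest peak stood at percentiles 95.0 and 95.3 at 0 h, 93.7 and 93.3 at 1 h, and 96.8 and 96.4 at 10 h. The change from 0 h to 10 h was 0.19 (adjusted p = 0.805). Of the 17 H3K4me1 regions tested, limma called 2 from 1 h to 10 h and none from 0 h to 10 h or from 0 h to 1 h, where 3 and 6 of the 17 had an unadjusted p under 0.05. Over all 60476 regions, 3.05% were called from 1 h to 10 h, and 8.66% and 15.5% had an unadjusted p under 0.05 from 0 h to 10 h and from 0 h to 1 h. The region from 36562993 to 36578675, over SRSF3 and beyond its end, rose by 1.12 ± 0.208 (adjusted p = 0.00978), with percentiles of 54.4 and 61.2 at 1 h and 87.3 and 84.5 at 10 h. Its strongest peak began near the SRSF3 promoter at 1 h and nearer the SRSF3 end at 10 h. The call was lost without WT 1 h replicate 1 (0.94) or with either one of the WT 10 h lists left out (0.99 and 1.20). The region at 22.8 kb, inside RAB44, fell by 0.95 (adjusted p = 0.0461), from percentiles of 75.3 and 71.7 to 38.1 and 43.6. Its call was lost when any 1 of the 6 lists was left out (−0.97 to −0.90, adjusted p = 0.0516 to 0.186).

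Most H3K27ac regions of the locus also overlapped an H3K4me1 region, as did most H3K27ac regions of the genome. An overlap of 1 bp between merged regions sufficed, so the marks need not share a place. The SRSF3 promoter region counts as overlapping, yet the SRSF3 start lay under H3K27ac in 10 of 10 lists and under H3K4me1 in 0 of 6. Of the H3K27ac regions called in both WT lists of a time point, 6 of 6 at 0 h, 7 of 7 at 1 h and 7 of 8 at 10 h overlapped an H3K4me1 region called in both lists of that time, beside 97.8%, 98.4% and 82.2% of all H3K27ac regions. In the other direction, 6 of 20 H3K4me1 regions at 0 h, 6 of 20 at 1 h and 6 of 17 at 10 h overlapped H3K27ac, beside 34.2%, 32.7% and 35.4% of all H3K4me1 regions. Most H3K4me1 regions of the window, including all those centred downstream of CDKN1A, were thus without an H3K27ac region called in both lists of any WT time.

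Regions of the window were also counted as gained (called in both lists of the later group and in neither of the reference) or lost (the reverse). For H3K27ac in WT, none of the 20 was gained or lost from 0 h to 1 h, when 1.51% of all regions were gained and 1.32% lost. From 0 h to 10 h, 2 were gained and none lost (11.4% and 1.90% of all regions), and from 1 h to 10 h the same 2 were gained and none lost (8.89% and 1.88%). They lay inside SRSF3 at −74.5 kb and just past the CDKN1A end at 9.39 kb. In the RAD21 line, 4 were gained within 1 h and none lost (4.61% and 2.87% of all regions), 3 of them in or at the end of SRSF3 (−77.3, −74.5 and −73.2 kb) and 1 at −61.5 kb.

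The same 4 regions were called in both RAD21 lists and neither WT list at 1 h, and none the other way round (3.23% and 1.15% of all regions). The 4 peaks were weak, at percentiles 8.26 to 48.4 in the RAD21 1 h lists. At 0 h none was called in the RAD21 line alone and 1, at −98.7 kb, in WT alone (5.28% and 2.83%). Single lists decided these counts. Gains and losses together, WT 10 h against 0 h had 4 without WT 10 h replicate 1 and 6 without replicate 2, and against 1 h it had 4 without WT 10 h replicate 1 or WT 1 h replicate 2 and 6 without WT 10 h replicate 2. The RAD21 line had 7 without RAD21 1 h replicate 1, and the lines at 1 h had 7 without RAD21 1 h replicate 2. WT at 1 h against 0 h had 1 with either one of the WT 0 h lists left out and 2 without WT 1 h replicate 2, and the lines at 0 h had 2 without WT 0 h replicate 1 or RAD21 0 h replicate 1. For H3K4me1, none was gained and 1 lost (−6.59 kb) from 0 h to 1 h (3.30% and 1.75% of all regions), none gained or lost from 0 h to 10 h (2.63% and 2.29%), and none gained and 1 lost (−46.9 kb) from 1 h to 10 h (2.91% and 4.65%). Without 1 list, these H3K4me1 counts ranged up to 4 (1 h, without WT 0 h replicate 1), 3 (10 h against 0 h, without WT 10 h replicate 2) and 3 (10 h against 1 h, without WT 10 h replicate 2). None of the regions gained or lost over all lists is the upstream enhancer region or the region over CDKN1A, each of which had a peak in every list.

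Other genes of the p53 response were described by the same H3K27ac length measure, in lists of early and arrest targets, feedback regulators, apoptosis targets, repair and metabolic targets, and the other CDK inhibitor genes. From 0 h to 10 h in WT, 9 of the 37 tested were called higher and 6 lower. Over all 13214 genes, 2143 were called higher and 2531 lower, 35.4% in either direction. The median change was 0.10 over the 37 and −0.08 over all genes. By list, 3 of 11 arrest and early targets were higher and 2 lower, 1 of 5 feedback regulators was higher, 4 of 9 apoptosis targets were higher and 1 lower, and 1 of 6 repair and metabolic targets was higher. Of the 6 other CDK inhibitor genes, the relatives of CDKN1A in function, 3 were lower and none higher, with a median of −0.41. MDM2, which encodes the ubiquitin ligase (HDM2) that Nutlin-3a keeps from p53, gained 2.22 ± 0.395 (adjusted p = 0.00546), AEN, an exonuclease gene, gained 1.81 (adjusted p = 0.00794), TNFRSF10B, a death receptor gene, gained 0.96 (adjusted p = 0.0106) and CDKN2C, which encodes p18, fell by 0.76 (adjusted p = 0.00726). With the name form as a term, which here too rests on 1 WT 1 h list of each form, 1 of the 37 was called, SESN2, which was lower. Beside it, 149 of all 13214 genes were called higher and 131 lower, and MDM2 had 1.27 ± 0.580 (adjusted p = 0.264).

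In the other H3K27ac comparisons, limma called 2 of the 37 genes higher (PHLDA3 and XPC) and 1 lower (CDKN2C) from 1 h to 10 h in WT, beside 14.3% of all genes called. Between the lines at 0 h, 6 were higher and 3 lower in the RAD21 line, beside 27.5% of all genes, with AEN the most by p (2.01 ± 0.360, adjusted p = 0.00639). With the name form as a term none of the 37 was called there, beside 223 higher and 283 lower of all 13214 genes. Without that term, limma called none from 0 h to 1 h in WT, none in the RAD21 line, none between lines at 1 h and none for the interaction. In these comparisons 11, 5, 8 and 3 of the 37 had an unadjusted p under 0.05, beside 18.3%, 18.5%, 19.3% and 17.7% of all genes. With the name form as a term, 3 were called higher and 1 lower in the RAD21 line, beside 972 higher and 696 lower of all 13214 genes. In that fit the gap between the WT 1 h lists leaves the shared spread. The median SE over all genes was 0.145 with the term and 0.192 without it, at the same median change. For H3K4me1, 2 of 38 genes were higher from 1 h to 10 h, beside 1.38% of all genes called in either direction: MDM2 by 1.06 ± 0.159 (adjusted p = 0.0216) and TP53INP1, which encodes a p53-inducible stress protein, by 0.77 (adjusted p = 0.0358), while CDKN1A had 0.38. None was called by limma from 0 h to 10 h (7 at an unadjusted p under 0.05, beside 8.15% of all genes) or from 0 h to 1 h (2, beside 13.2%).

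Among the genes whose H3K27ac length followed that of CDKN1A most closely over the 10 lists, out of 13213, were EIF4A1 (Pearson r = 0.995), LASP1 (0.989), ELP5 (0.988) and TRIM66 (0.985). The points share their libraries, and these 4 genes had their shortest stretches in the 3 lists whose peak names lack the word input. For EIF4A1, which encodes a translation initiation helicase, the length was 1471 to 1681 bp in those lists and 5168 to 9659 bp in the other 7.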

How the data were processed

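Peak lists of 16 ChIP-seq libraries (10 H3K27ac, 6 H3K4me1) were analysed, grouped by the labels. The 10 input libraries were not analysed here. According to the study's methods and the submitters' processing notes, the authors trimmed reads (Trim Galore 0.6.6), mapped them to GRCh37.p13 with Bowtie2 2.3.2, filtered them, and called peaks per library with MACS2 2.2.7.1, as stated against input, with narrow peaks for H3K27ac and broad peaks for H3K4me1. The fold enrichment (a ratio), −log10 p-value and −log10 q-value of each peak are the authors' deposited values, and peak positions and summits are also theirs. The score the authors deposited (10 times −log10 q in whole numbers) was not used. No depth is given, so −log10 p-values were used only as ranks within a list.

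The locus and gene lists were chosen with earlier results of these data known. Peaks overlapping by 1 bp were merged across lists. Promoters ran from 1000 bp before to 200 bp after start sites (GENCODE annotation lifted to GRCh37). Any region of the window could be named. Named pathway genes were those with the smallest p, at most 4 per comparison, and like genes the 5 with the highest correlation, 1 of which is not reported here. limma 3.58.1 in R 4.3.3 (lmFit, eBayes with trend, Benjamini-Hochberg over all regions or genes) was tested on simulated data. A p53 element was 2 decamers with a spacer of at most 1 bp and at most 2 departures outside the cores. Ranking by fold, the peak name form or the replicate number as a term, stricter peaks, other region and gene limits, and each list left out in turn were the alternatives. With a list left out, the lone list of its group was assumed to vary like the other groups.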

Additional observations from a re-analysis of the deposited data

Results flagged for a closer look

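The 1 h change of H3K27ac at the upstream enhancer region (−11.4 kb) differed between the lines by an interaction term. It was larger in the RAD21 line than in WT by 0.61 ± 0.178 on the normal score scale (limma, adjusted p = 0.0268). The percentiles went from 67.9 and 67.6 to 76.2 and 77.3 in the RAD21 line, and from 61.9 and 59.3 to 59.3 and 65.3 in WT. They are taken over lists of unequal length. WT 1 h replicate 2, at 65.3, had a lower score than replicate 1, at 59.3 (−0.60 against −0.38). The adjusted p ranged up to 0.255 over the alternatives, as given beside the result, and 22.7% of all regions had the same call.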

How the results depend on the processing

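For the upstream enhancer region, the H3K27ac rises in WT at 10 h kept their calls under the alternatives without the name form as a term. Against 0 h, the form cannot be told apart from time in any of these alternatives. Values for WT with the form as a term support no call. Ranked by fold, 3 other changes there were no longer called, with 0.52 for the RAD21 line at 1 h against 0 h, 0.52 for the RAD21 line against WT at 1 h and 0.80 for the interaction. With the peak name form as a term, the CDKN1A region had 0.02 between the lines at 0 h and 0.26 in the RAD21 line. The latter value was unchanged and passed the threshold through a smaller SE alone. The covered length at 10 h against 0 h turned to −0.22. The form effect in WT comes from 1 list of each form at 1 h.

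Same-numbered replicates did not deviate together (correlations of their deviations from −0.05 to 0.05), so the numbers were not taken to pair samples. The numbers are those of the labels. Peak names carry others in both H3K4me1 lists of 1 h and in replicate 2 of the RAD21 line at 0 h and 1 h. With the replicate block, the CDKN1A region passed in WT at 10 h against 0 h for H3K27ac (0.49) and at 10 h against 1 h for H3K4me1 (−0.80), and it changed no other call.

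Leaving out each list in turn gave ranges in which at least 1 call moved. For the upstream enhancer region these were 0.44 to 0.56 in the RAD21 line, 0.43 to 0.63 between lines at 1 h and 0.50 to 0.70 for the interaction. For the CDKN1A region they were 0.12 to 0.70 in WT at 1 h, 0.39 to 0.58 at 10 h, −0.23 to 0.37 from 1 h to 10 h, 0.24 to 0.27 in the RAD21 line, 0.52 to 0.71 between lines at 0 h, 0.16 to 0.76 at 1 h and −0.45 to 0.14 for the interaction. For its H3K4me1 they were −1.28 to −0.50 (10 h against 0 h) and −0.94 to −0.65 (10 h against 1 h). For the H3K27ac length of CDKN1A they were −0.26 to 1.23 in WT at 1 h, 1.21 to 1.33 at 10 h, 0.04 to 1.53 from 1 h to 10 h, 0.82 to 0.94 between lines at 0 h, −0.16 to 1.33 at 1 h and −1.04 to 0.45 for the interaction. WT 1 h replicate 1 and replicate 2, which differ in name form, each decided several of these.

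Counts of H3K27ac regions gained or lost in the window ranged, without each list in turn, over 0 to 2 (WT 1 h against 0 h), 3 to 6 (10 h against 0 h), 2 to 6 (10 h against 1 h), 4 to 7 (RAD21 line), 1 to 2 (lines at 0 h) and 4 to 7 (lines at 1 h), and for H3K4me1 over 1 to 4, 0 to 3 and 2 to 3. With −log10 q of at least 5 they were 1, 0, 1, 2 and 2 for H3K27ac (the comparisons above without lines at 0 h) and 1 and 2 for H3K4me1 at 10 h. Calling a region only when peaks covered at least 50% of it gave 2, 5, 5 and 3 (WT comparisons, then lines at 0 h), and 2 for H3K4me1 at 10 h against 1 h. A minimum −log10 q of 5 left the −35.4 kb region untested. Since read depth is not known, a missing peak does not show that the mark was absent.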
